A study of Caenorhabditis elegans with 79 samples.

Results

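The mRNAs of 9 genes that encode RNA-binding proteins of the Caenorhabditis elegans oocyte and early embryo were followed across strains and generations: oma-1, oma-2, spn-4, pos-1, mex-3, mex-5, mex-6, puf-5 and puf-11. They were taken by gene name from an mRNA table of 21976 genes, and all 9 were among the 7324 genes with a mean of at least 10 FPKM that were tested. The study asked how loss of MORC-1, a GHKL-type ATPase tied to germline chromatin, changes animals over generations, with wild type and mutants of HRDE-1, a nuclear Argonaute of germline RNA interference, as controls. RNA came from whole animals of 3 strains: wild type N2, morc-1(tm6048) and hrde-1(tm1200). Animals ate OP50 bacteria and were kept at 25 °C from the P0 generation on, after ancestors at 20 °C; early libraries are generation F1 and late libraries F4. Each of the 6 groups had 2 polyA libraries, 12 in all. The labels call the animals young adults while their RNA protocol names gravid hermaphrodites, so how many embryos the animals held is not known. The sources used here give no separate cultures for the replicates, so p-values measure the spread between these libraries, which may be technical.

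Oocytes of the worm stop transcription before they are fertilised, and the first embryonic divisions run on mRNA and protein loaded by the mother. RNA-binding proteins decide when and where those stored messages are translated: they hold them silent in the growing oocyte, and after fertilisation they are sorted along the embryo's axis or destroyed. In a whole animal, the mRNAs of such genes come largely from the germline and from embryos in the uterus. In bulk RNA, fewer oocytes or embryos and less mRNA in each cannot be told apart.

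Levels are in FPKM, fragment counts scaled by gene length and library size, which lets genes be set against each other. pos-1, a CCCH zinc-finger protein of posterior embryonic cells, had the highest mean level of the 9 genes in all 6 groups, from 465 ± 176 FPKM (SD, n = 2) in late wild type to 875 ± 163 in early wild type, and its libraries did not overlap those of the next gene in any group. In rank it stood between position 165 and 457 of all genes in the 12 libraries. spn-4, an RNA recognition motif protein, and puf-5, a Pumilio-family repressor of late oogenesis, held the next 2 places by mean in every group. Their libraries overlapped in early and late wild type, in late morc-1 and in both hrde-1 groups, so their order there is not resolved, while spn-4 was above puf-5 in both early morc-1 libraries. By mean, oma-2 came after them in 5 groups, and after mex-5 in late hrde-1. The libraries of oma-2 overlapped those of puf-5 in late wild type, and those of spn-4 overlapped those of mex-5 in late hrde-1. Those of oma-2 also overlapped those of puf-11 in late wild type and early morc-1, and those of mex-5 in late morc-1. The lowest mean belonged to mex-3, a KH-domain repressor of the homeobox message pal-1, in 5 groups, and to mex-6 in late hrde-1. Only in early wild type and late morc-1 were the libraries of the lowest gene clear of the next, so the last place is not resolved in the other 4 groups. mex-3 ranked between position 786 and 2163.

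Summed over the 9 genes, the mRNAs made up 0.314% ± 0.026 (SD, n = 2) of all FPKM in early wild type and 0.118% ± 0.020 in late wild type. The share was 0.232% ± 0.019 in early and 0.296% ± 0.014 in late morc-1. It was 0.267% ± 0.009 in early hrde-1, and in late hrde-1 it was 0.245% in replicate 1 and 0.130% in replicate 2. Late wild type and the second late hrde-1 library were therefore the lowest of the 12, and these 2 late hrde-1 libraries stood further apart than any other replicate pair.

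**Figure D1:**
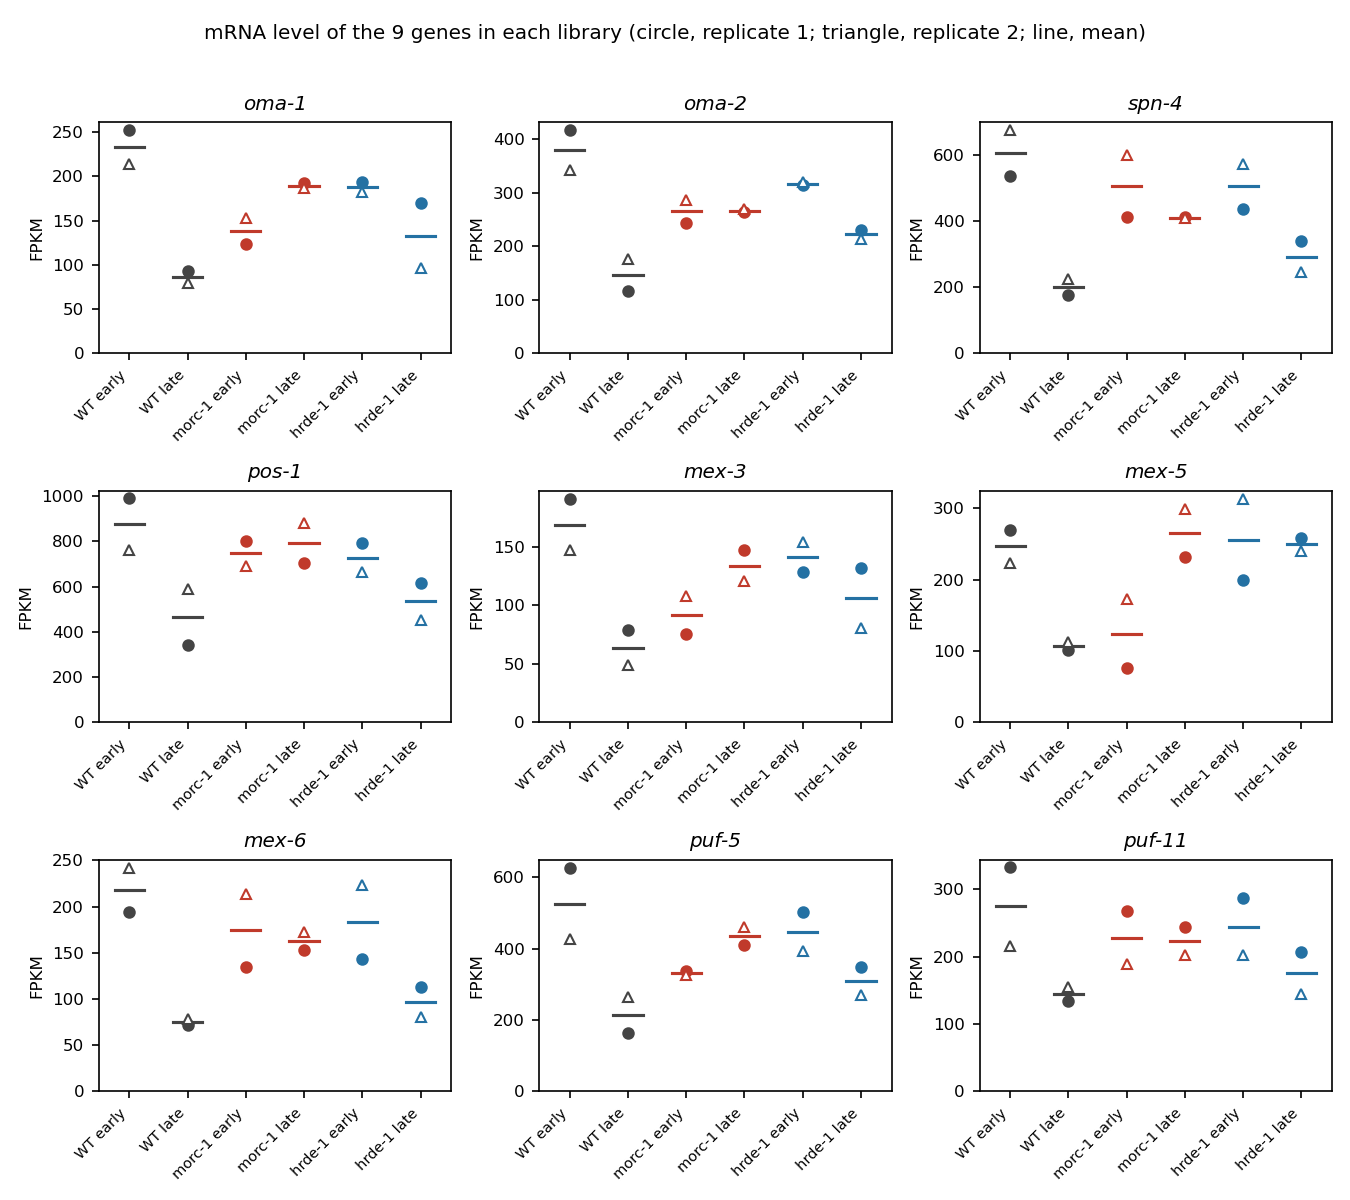
FPKM (vertical axis, from 0) of each of the 9 genes in every library, by strain and generation; circles are replicate 1, triangles replicate 2 and lines the group mean. In all 9 panels both late wild-type points lie below both early wild-type points, while in late morc-1 all points lie above those of late wild type.

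In wild type, 6 of the 9 mRNAs fell between F1 and F4, and the other 3 were lower without passing the test. Of all genes tested, 4% were called lower and 3.13% higher in this comparison. All 9 genes had an unadjusted p under 0.05, as had 36.3% of all genes in that direction. The fall reached 3.00-fold for spn-4. Fold changes here are on the log2(FPKM + 1) scale, which understates those of low genes, and each is given with its standard error and limma's adjusted p over all 7324 genes.

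OMA-1 and OMA-2 are closely related CCCH zinc-finger proteins that act redundantly in oocyte maturation and keep many oocyte messages silent. oma-1 stood at 253 and 214 FPKM in the early wild-type libraries and at 93.4 and 80.1 in the late ones, and it fell by 1.42 on the log2 scale (SE 0.28, adjusted p = 0.0284). oma-2 stood at 418 and 343 FPKM early and at 116 and 176 late, and it fell by 1.40 (SE 0.24, adjusted p = 0.0176). For both genes the late libraries were well under the early ones, with no overlap. How reads matching both genes were counted is not given in the sources used here, so the split between them is uncertain.

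PUF-5 and PUF-11 belong to the Pumilio family, whose members bind 3′ untranslated regions and repress translation. puf-5 stood at 625 and 426 FPKM early and at 165 and 265 late in wild type, and it fell by 1.30 (SE 0.30, adjusted p = 0.0412). puf-11 stood at 334 and 216 FPKM early and at 135 and 155 late. Its difference of -0.89 (SE 0.31, adjusted p = 0.0726) did not pass the test, although both late libraries lay below both early ones. puf-11 has a close relative, puf-3, and reads of this pair may also have been split.

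The remaining 5 genes are known for the early embryo. spn-4, needed there for spindle orientation and cell fate, stood at 536 and 676 FPKM early and at 177 and 226 late in wild type, and it fell by 1.59 (SE 0.28, adjusted p = 0.0186). mex-3 stood at 191 and 147 FPKM early and at 78.5 and 48.8 late, and it fell by 1.42 (SE 0.33, adjusted p = 0.0416). Both genes kept their early and late libraries apart. pos-1 stood at 990 and 760 FPKM early and at 340 and 590 late, a difference of -0.95 (SE 0.31, adjusted p = 0.0646) that did not pass, again without overlap.

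MEX-5 and MEX-6 are a further related pair of CCCH proteins, which act redundantly to set up the anterior of the zygote. mex-6 stood at 194 and 242 FPKM early and at 71.8 and 77.9 late in wild type, and it fell by 1.52 (SE 0.31, adjusted p = 0.0307). mex-5 stood at 270 and 223 FPKM early and at 101 and 112 late. Its difference of -1.20 (SE 0.37, adjusted p = 0.0617) was large but did not pass, and the libraries of neither gene overlapped. Reads shared by this pair could also move values from one gene to the other.

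Groups did not overlap for all 9 genes, each lower late, but 57.3% of all tested genes were lower without overlap in the same comparison. The median change of the 9 was -1.40 against -0.59 over all tested genes, so much of the transcriptome read lower in late wild type on the deposited scale. Relative to that median, the 9 genes lay between -0.998 for spn-4 and -0.30 for puf-11. After quantile normalisation the medians were -1.24 for the 9 and -0.17 for all genes. The number of these genes that passed was 2 with libraries rescaled to the same sum, 0 with the mutant libraries left out of the fit, and 0 without the first or without the second early wild-type library. In these 4 fits only 4 to 14 of all 7324 genes were called lower.

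In morc-1 mutants the 9 mRNAs summed to 2609 ± 189 FPKM (SD, n = 2) early and 2881 ± 173 late. None of the 9 passed the limma test between generations, and 1, mex-5, had an unadjusted p under 0.05, as had 4.71% of all genes in its direction. Over all genes 0.287% were called higher and 0.0956% lower. The largest difference was that of mex-5, which stood at 75.6 and 173 FPKM in the early and at 232 and 299 in the late morc-1 libraries (log2 difference 1.19, SE 0.37, adjusted p = 0.281). Its libraries did not overlap, but without the first early morc-1 library the difference was 0.60 and without the second 1.79. mex-5 was also the gene with the widest range of all, 4.13-fold from the first early morc-1 library to the second early hrde-1 library.

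Other members differed less between the morc-1 generations. oma-1 read 124 and 153 FPKM early and 193 and 187 late (log2 difference 0.46, SE 0.28), and mex-3 read 75.6 and 108 early and 147 and 120 late (0.55, SE 0.33). puf-5 read 337 and 326 FPKM early and 410 and 460 late (0.39, SE 0.30). These 3 genes and mex-5 were higher late without overlap, 4 of 9, against 17.3% of all tested genes. spn-4 went the other way, at 414 and 600 FPKM early and 413 and 410 late (-0.28, SE 0.28), with the late libraries just below the early ones; 38.5% of all genes were lower without overlap.

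The last 4 genes overlapped between morc-1 generations. oma-2 read 244 and 287 FPKM early and 264 and 269 late, and pos-1 read 802 and 693 early and 704 and 883 late. mex-6 read 135 and 214 FPKM early and 153 and 173 late, and puf-11 read 268 and 189 early and 244 and 202 late. Their log2 differences lay between -0.06 and 0.08, and that of mex-6 and of puf-11 changed sign from below to above 0 under quantile normalisation and rescaling to the same sum. The median of the 9 genes was 0.08 against -0.22 for all tested genes.

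Set against wild type of the same generation, the morc-1 libraries were on the low side early and on the high side late. Both sets of comparisons share their wild-type libraries with those above and with the hrde-1 comparisons, so they are not independent of them. In F1 all 9 genes had lower means in morc-1, from -0.22 for pos-1 to -1.09 for mex-5, but none passed the limma test (adjusted p = 1 for each) and 3 did at an unadjusted p under 0.05: oma-1, mex-3 and mex-5, against 1.77% of all genes lower. That of mex-5 was -0.50 without the first early morc-1 library and -1.69 without the second. Over all genes 0.109% were called higher and 0% lower. The libraries of oma-1, oma-2, mex-3, mex-5 and puf-5 did not overlap, 5 of 9 against 19.4% of all genes. The median was -0.51 against -0.06 over all genes.

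In F4 each of the 9 genes was higher in both morc-1 libraries than in both wild-type libraries, against 35.6% of all tested genes. The log2 differences ran from 0.62 ± 0.31 (SE) for puf-11 to 1.29 ± 0.37 for mex-5, with 1.12 ± 0.28 for oma-1 and 1.11 ± 0.31 for mex-6. Their median was 1.05, against 0.25 over all genes. None passed limma's test, with adjusted p between 0.206 and 0.398, while 8 of 9 had an unadjusted p under 0.05, all but puf-11; 9.74% of all genes did so in that direction and 0.355% were called higher.

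The change over generations in morc-1 minus that in wild type was positive for each of the 9 genes. It was 2.39 for mex-5 (SE 0.52, 95% interval 1.22 to 3.55), 1.97 for mex-3 (SE 0.47) and 1.88 for oma-1 (SE 0.39). The lowest was 0.87 for puf-11 (SE 0.44, 95% interval -0.11 to 1.86). None of the 7324 genes tested passed limma's test of this difference, with adjusted p between 0.349 and 0.454 for the 9. At an unadjusted p under 0.05 stood 8 of the 9 genes, and 9.68% of all genes in that direction. The median was 1.46 for the 9 and 0.30 for all tested genes.

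**Figure D2:**
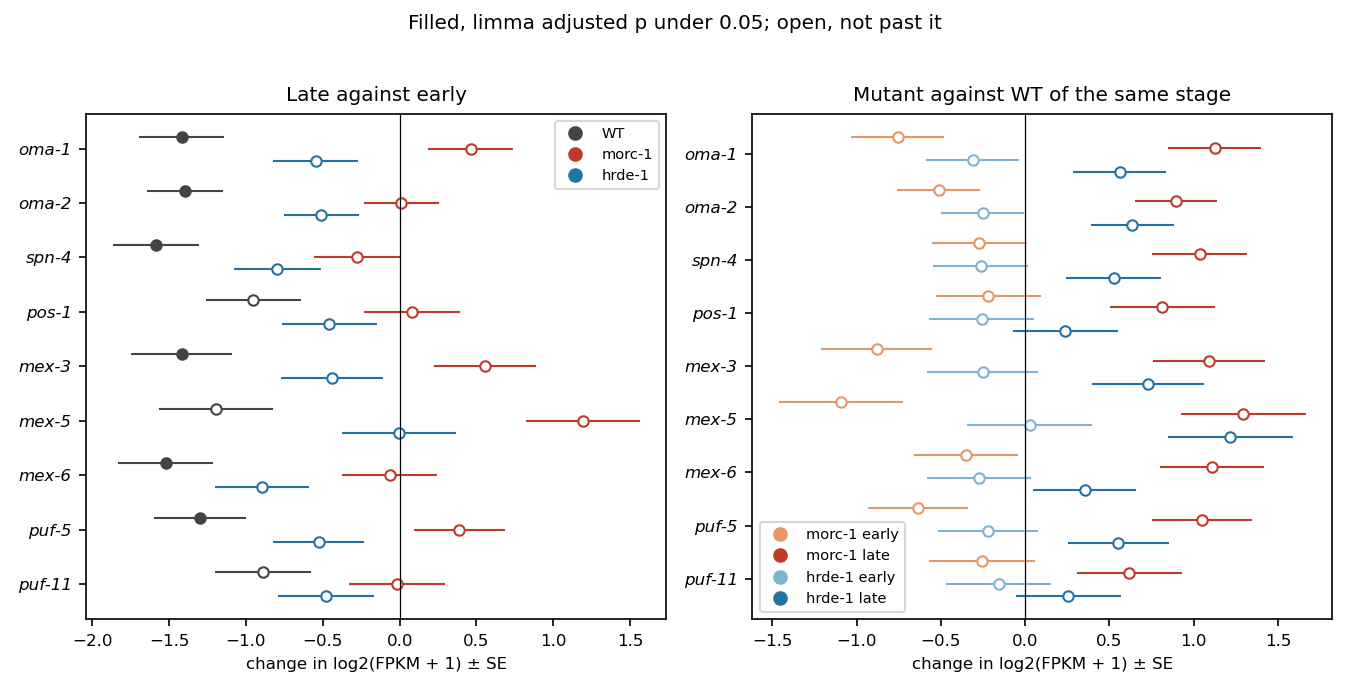
Change in log2(FPKM + 1) with its standard error for each of the 9 genes, late against early in each strain (left) and mutant against wild type of the same generation (right); filled points passed limma's test at an adjusted p under 0.05. Only the 6 wild-type changes of oma-1, oma-2, spn-4, mex-3, mex-6 and puf-5 are filled, and the late morc-1 points lie above 0 for all 9 genes without passing.

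In hrde-1 mutants all 9 means were lower late than early, and none passed the limma test. Over all genes 0.765% were called higher and 0.177% lower. spn-4 read 438 and 574 FPKM in early and 339 and 245 in late hrde-1 (log2 difference -0.80, SE 0.28, adjusted p = 0.162). mex-6 read 143 and 224 FPKM early and 113 and 81.0 late (-0.90, SE 0.31, adjusted p = 0.161). Both were without overlap, and they were the 2 genes with an unadjusted p under 0.05, against 20.9% of all genes lower. Without the first late hrde-1 library, which held more of these mRNAs than the second, 3 of the 9 genes passed, oma-1, spn-4 and mex-6, but so did 1808 of all 7324 genes (24.7%) as lower.

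Among the other 7 genes, oma-1 read 193 and 182 FPKM early and 170 and 96.8 late in hrde-1, oma-2 read 315 and 321 early and 232 and 214 late, and puf-5 read 502 and 392 early and 349 and 270 late. pos-1 read 792 and 665 FPKM early and 615 and 454 late. These 4 genes did not overlap between generations, so that with spn-4 and mex-6 it was 6 of 9, near the 48.8% of all tested genes. mex-3 read 128 and 154 FPKM early and 132 and 80.7 late, and puf-11 read 287 and 202 early and 207 and 144 late, with overlap. mex-5 differed from the rest, at 200 and 312 FPKM early and 259 and 240 late, a log2 difference of -0.0039 that turned to 0.047 under quantile normalisation. The median of the 9 was -0.51, close to -0.45 over all genes.

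In F1 the log2 differences of hrde-1 from wild type lay between -0.31 for oma-1 and 0.03 for mex-5, none passed limma's test, and 0 had an unadjusted p under 0.05, against 1.84% of all genes higher and 0.451% lower. The called share of all genes was 0.56% higher and 0.041% lower. Only oma-1 and oma-2 did not overlap, both lower, against 10.7% of all genes. In F4 all 9 means were higher in hrde-1 than in wild type, from 0.24 for pos-1 to 1.22 for mex-5 (SE 0.37, adjusted p = 0.136), and none passed. The unadjusted p was under 0.05 for oma-2 and mex-5, as for 8.29% of all genes in that direction, and 2.57% of all genes were called higher and 0.683% lower. The libraries of 7 of 9 genes did not overlap, all but pos-1 and puf-11, against 15.8% of all genes. The median was 0.55 against 0.09. With either late hrde-1 library left out, 0 of the 9 passed.

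The change over generations in hrde-1 minus that in wild type lay between 0.41 for puf-11 (SE 0.44) and 1.19 for mex-5 (SE 0.52, 95% interval 0.03 to 2.36). Its adjusted p was 1 for all 9 genes in limma's test, and 3 of them, oma-1, oma-2 and mex-5, had an unadjusted p under 0.05, as had 2.81% of all genes in that direction. The median was 0.79 against 0.11 over all genes, and 0% of all genes were called higher.

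Within related pairs the balance of the mRNAs also varied. The ratio of mex-5 to mex-6 FPKM was 0.561 and 0.811 in the early morc-1 libraries and 1.52 and 1.73 in the late ones. It was 2.29 and 2.96 in late hrde-1 and 1.39 and 1.40 in early hrde-1. In wild type it was 1.39 and 0.924 early and 1.41 and 1.44 late. Early morc-1 was thus the group with less mex-5 than mex-6 in both libraries, and late hrde-1 the group with the highest ratios; the differences in ratio were not tested.

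The ratio of oma-2 to oma-1 stayed above 1 in all 12 libraries. It was 1.65 and 1.60 in early and 1.24 and 2.20 in late wild type, 1.97 and 1.88 in early and 1.37 and 1.44 in late morc-1, and 1.63 and 1.76 in early and 1.37 and 2.21 in late hrde-1. The gap between replicates was widest in late wild type and late hrde-1. The ratio of puf-5 to puf-11 was between 1.22 and 2.28 in all libraries. That of puf-11 to puf-3 was between 0.754 and 1.91, highest in the first early morc-1 library.

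**Figure D3:**
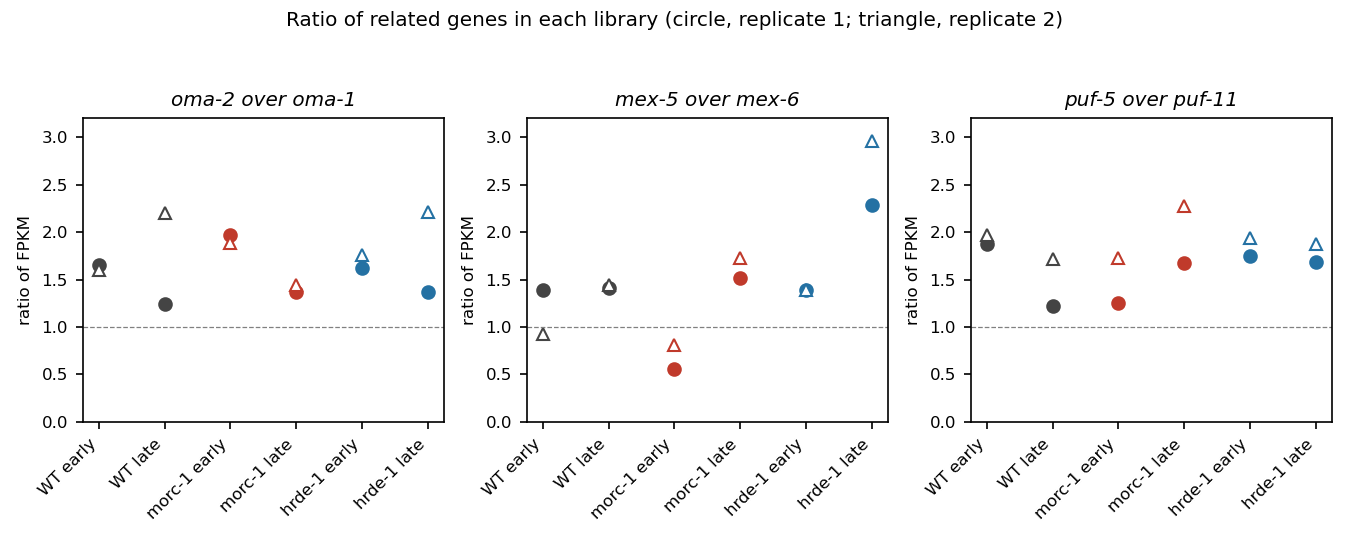
Ratio of FPKM of oma-2 to oma-1, mex-5 to mex-6 and puf-5 to puf-11 (vertical axis, from 0) in each library by group; circles are replicate 1, triangles replicate 2, and the dashed line marks equal levels. The mex-5 to mex-6 ratio lies below the line in both early morc-1 libraries and is highest in late hrde-1, at 2.29 and 2.96.

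Other genes of the same regulatory system were read in the same way. These lists and the marker lists below share some genes, among them nos-2, zif-1, glp-1 and chs-1, so they are not independent. Of 22 further germline RNA-binding and translational regulators, 2 fell in late against early wild type: gld-3, of a cytoplasmic poly(A) polymerase complex (log2 change -1.26, SE 0.31, adjusted p = 0.0452), and nos-2, a Nanos protein of primordial germ cells (-1.37, SE 0.35, adjusted p = 0.0488). Over all genes 4% were called lower there. All 22 were lower, with a median of -0.97 against -0.59 over all genes. In the other comparisons none of the 22 passed. The median was 0.75 in late morc-1 against late wild type, with all 22 higher, and 0.27 in late hrde-1, with 19 higher, against medians over all genes of 0.25 and 0.09. In early morc-1 against early wild type all 22 were lower, with a median of -0.61 against -0.06 over all genes. The change over generations in morc-1 minus that in wild type was positive for all 22, with a median of 1.29 against 0.30.

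Of 10 mRNAs known as targets of these proteins, 3 fell in wild type: nos-2, mom-2, which encodes a Wnt ligand (-1.54, SE 0.31, adjusted p = 0.0301), and cdc-25.3, a CDC25 phosphatase gene (-1.63, SE 0.35, adjusted p = 0.0366). mom-2 went from a mean of 85.6 FPKM early to 28.7 late. The share called lower over all genes was again 4%. The median of the 10 was -1.48 against -0.59 over all genes. In late morc-1 and late hrde-1 against late wild type all 10 were higher and none passed, with medians of 1.00 and 0.49 against 0.25 and 0.09. Early morc-1 had 9 of 10 lower than early wild type, with a median of -0.40 against -0.06 over all genes. The morc-1 change over generations minus the wild-type change was positive for all 10, with a median of 1.36 against 0.30.

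Of 13 kinases and other regulators of the oocyte-to-embryo transition, 2 fell in wild type: mbk-2, the DYRK kinase that phosphorylates OMA-1 and MEX-5 (-1.24, SE 0.27, adjusted p = 0.0381), and chs-1, the eggshell chitin synthase (-1.36, SE 0.33, adjusted p = 0.0455). All 13 were lower, with a median of -0.77 close to the -0.59 of all genes, of which 4% were called lower. The median was 0.77 in late morc-1 and 0.44 in late hrde-1 against late wild type, with none past the test, where those of all genes were 0.25 and 0.09. Early morc-1 had all 13 lower than early wild type, with a median of -0.42 against -0.06 over all genes. For all 13 the morc-1 change over generations minus the wild-type change was positive, with a median of 1.18 against 0.30.

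The tissue of origin was read from marker lists. Genes of meiotic and mitotic germ cells had 0 of 8 past limma's test in late against early wild type and a median of -0.76, all 8 lower, near the -0.59 of all genes. Of 9 oocyte markers 2 fell there, chs-1 and egg-2, an LDL-receptor-like egg surface protein (-0.996, SE 0.25, adjusted p = 0.0474), with a median of -0.91, where 4% of all genes were called lower. In morc-1 none of the oocyte markers passed the test, and 9 of 9 were lower than wild type early (median -0.81 against -0.06 over all genes) and 8 of 9 higher late (0.56 against 0.25). The change over generations in morc-1 minus that in wild type was positive for all 9, with a median of 1.38 against 0.30. In late hrde-1 against late wild type 8 of 9 were higher, with a median of 0.56 against 0.09. There 1 of 9 passed the test, and 2.57% of all genes were called higher. The change over generations in hrde-1 minus that in wild type was also positive for all 9 oocyte markers, at 0.68 against 0.11. Their part in the values of the RNA-binding protein genes was not tested. Embryonic zygotic genes were low: 7 of 8 were under the filter, all but lin-26. In late against early wild type lin-26 differed by -0.95 on the log2 scale without passing limma's test. All 8 summed to 74.8 to 84.0 FPKM in early wild type and at most 45.8 in late wild type. Their sum was 70.3 to 76.9 FPKM in late morc-1, and 52.1 and 37.7 in late hrde-1. It was 62.7 to 80.9 FPKM in early morc-1 and 63.8 to 75.2 in early hrde-1. Whether this sum follows the number of embryos was not tested. No marker of any list was at 0 in both libraries of a group.

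Some somatic markers rose in late wild type, where 3.13% of all genes were called higher. The 7 intestinal genes summed to 3745 to 4071 FPKM early and 9719 to 9721 late; of 6 tested, ifb-2, an intermediate filament gene, rose by 1.15 (SE 0.24, adjusted p = 0.0316) and cpr-6, a cathepsin B gene, by 1.23 (SE 0.28, adjusted p = 0.0412), while pept-1, a peptide transporter, fell by 1.54 (SE 0.28, adjusted p = 0.0206). Of 6 muscle genes, unc-54 rose by 1.57 and tni-3 by 1.78 (adjusted p = 0.049 and 0.00972). Of 4 neuronal genes tested, sbt-1 rose by 1.38 (adjusted p = 0.0274). Neither of the 2 hypodermal genes tested passed, with 1 higher and 1 lower. Against late wild type, late morc-1 had 5 of 6 intestinal, 4 of 6 muscle and 4 of 4 neuronal genes lower. The medians were -0.64, -0.22 and -0.36, against 0.25 over all genes. Late hrde-1 had 6 of 6 intestinal, 6 of 6 muscle and 3 of 4 neuronal genes lower than late wild type. There the medians were -0.57, -0.64 and -0.15, against 0.09 over all genes. Intestinal sums were 5909 to 5937 FPKM in late morc-1, and 4233 in the first and 10994 in the second late hrde-1 library. The library of that pair with the lower level of the 9 mRNAs was thus the one with the higher intestinal sum. That second library also had the higher oocyte marker sum, at 10897 against 5664 FPKM in the first. Its sum of meiotic and mitotic germ cell markers was the lower one, at 584 against 696 FPKM. Such sums are weighted to their highest genes, and single markers were not compared between these libraries. Because FPKM is a share of each library, what part the germline and somatic share of the RNA had in the values of the 9 genes was not tested.

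Sperm markers were highest in late hrde-1. Of 8 tested, 7 rose against late wild type, with a median of 3.46, where 2.57% of all genes were called higher and the median of all genes was 0.09. The lowest adjusted p was that of msd-4, a gene of the major sperm protein domain family, at a mean of 255 against 29.5 FPKM (log2 change 3.55, SE 0.65, adjusted p = 0.0177). Sums of the 9 sperm markers were 546 and 1378 FPKM in late hrde-1 and 25.4 and 178 in late wild type. perm-4, an eggshell gene among the oocyte markers, also rose in late hrde-1 against late wild type (1.65, SE 0.35, adjusted p = 0.0322), and ifb-2 fell (-1.29, SE 0.24, adjusted p = 0.0186). pept-1 fell in late against early hrde-1 (-2.02, SE 0.28, adjusted p = 0.00892).

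**Figure D4:**
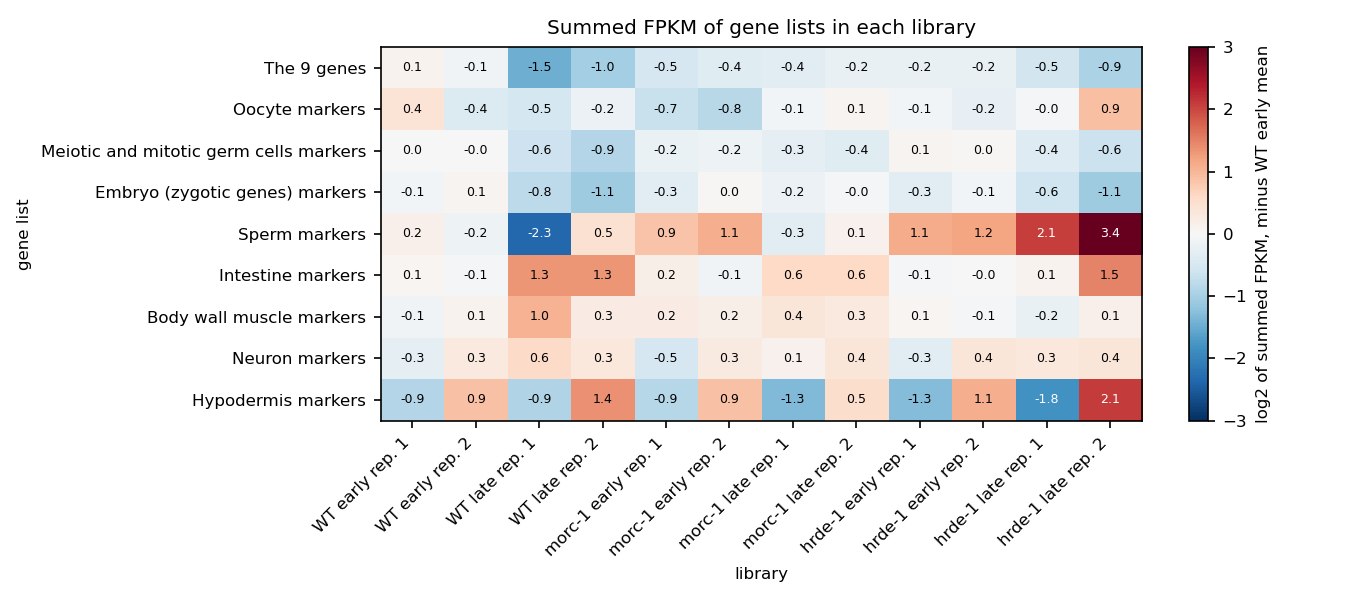
Summed FPKM of the 9 genes and of marker lists in each library, as the log2 difference from the mean of early wild type (colour and printed value; blue lower, red higher). The 9 genes, meiotic and embryonic markers are lower in both late wild-type libraries, where intestinal markers are higher, and sperm markers are highest in the late hrde-1 libraries.

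The 9 profiles over the 12 libraries were compared by their root mean square distance in log2(FPKM + 1), each gene centred on its own mean. oma-2 lay nearest to the mean of the other 8, at 0.15, and oma-1 followed at 0.16. mex-5 was farthest, at 0.52, and the others lay between 0.19 for puf-5 and 0.31 for puf-11. Outside the 9 genes the nearest profiles were those of W02F12.3 at 0.11, ptr-2, a patched-related gene, at 0.12, cpg-4, a chondroitin proteoglycan gene, at 0.12, clec-87, a C-type lectin gene, at 0.13 and mig-22, a chondroitin polymerising factor gene, at 0.14. The median distance of the 7315 other genes was 0.48. These outside genes were set against the mean of all 9, and the 5 named ones were picked as the nearest. Their distances therefore do not show a closer fit than those of the 9 genes.

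The labels of the mutants were read against the targeted genes. morc-1 stood at 24.3 to 54.9 FPKM in the wild-type and at 9.77 to 14.1 in the morc-1 libraries, lower in each generation without overlap. hrde-1, listed under its synonym wago-9, stood at 134 and 151 FPKM in early hrde-1 against 198 and 234 in early wild type, and at 68.5 and 81.1 against 97.2 and 102 late. In the morc-1 libraries hrde-1 stood at 125 and 161 FPKM early and at 174 and 175 late. Its early level thus did not tell the hrde-1 libraries from those of morc-1. Whether the reads lie in the deleted part is not known from a gene total, so the level checks the labels only in part.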

How the data were processed

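The mRNA values deposited by the authors, scaled per library and by gene length, were read as FPKM. Its name speaks of normalized counts. The values hold decimals, however, and in genes at 0 in most libraries the remaining values fall with gene length. Libraries came from a stranded polyA kit, per the labels' protocols, and reads were handled with Trimmomatic 0.35 and TopHat2 (version not stated), per the submitters' processing notes. The counting method, build and annotation are not given in these sources, and read depth could not be recovered, so no counting interval is given. Replicates correlated at 0.897 to 0.950 across genes and no 2 libraries were identical.

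Genes with a mean of at least 10 FPKM over the 12 libraries were tested on log2(FPKM + 1) with limma 3.58.1 in R 4.3.3, 1 mean per group, moderated variance and a trend, two-sided, with Benjamini-Hochberg adjusted p under 0.05 over all genes as the threshold. Late was compared with early in each strain, each mutant with wild type in each generation, and the changes over generations with each other. The procedure was tested on simulated data for late against early wild type only, with errors drawn independently for each library. The correlation of replicate differences between groups of the same generation was not simulated. Alternatives were the pseudocount, the filter, the scaling, the libraries in the fit, the replicate number as a block and each library left out.

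The 9 genes and the gene lists were chosen with earlier results of these data known. All 9 were described; of each list the called genes with the lowest p were named, at most 4 per comparison, and the 5 genes of nearest profile. None of the 9 is among the 2434 features of the small RNA table, so the planned small RNA test was not run, and chromatin regions were not used because no build is named.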

Additional observations from a re-analysis of the deposited data

How the results depend on the processing

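With 2 libraries a group, small changes could not be resolved, and read depth is unknown. Of the 9 genes, 6 fell in late wild type; 2 did with libraries rescaled to the same sum, 0 with the compared groups alone in the fit and 0 to 5 when a library was left out. All genes called lower there numbered 293, but 85 without the filter, 14 rescaled, 10 in the compared groups alone and 4 to 885 when a library was left out. Those called higher numbered 229, but 529, 54 and 42 under quantile normalisation, rescaling and the compared groups alone. With a replicate block within each generation they numbered 717. With no library left out, the alternatives gave these ranges of genes called higher and lower: 66 to 1276 (188 in the report's fit) and 14 to 260 (50) in late hrde-1 against wild type, 5 to 921 (26) and 0 to 200 (0) in late morc-1, 36 to 112 (41) and 1 to 10 (3) in early hrde-1, and 2 to 17 (8) and 0 to 3 (0) in early morc-1. For late against early they were 32 to 581 (56) and 5 to 2993 (13) in hrde-1 and 16 to 224 (21) and 3 to 829 (7) in morc-1, and for the difference of changes 0 to 544 (0) and 0 to 76 (0) for morc-1 and 0 to 13 (0) and 1 to 11 (3) for hrde-1. In late against early hrde-1, 0 to 3 of the 9 passed as lower when a library was left out, and 3 to 1808 of all genes, the highest without the first late library.

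The replicate numbers pair no known batch. Replicate differences correlated at 0.429 to 0.554 between groups of the same generation and at -0.222 to 0.0469 between generations. A single replicate block left 6 of the 9 called lower in late wild type. With a replicate block within each generation, 9 were called lower there, beside 3696 of all genes (50.5%). In late against early hrde-1 it was 2 of 9, beside 2993 (40.9%). As higher it called 7 in late morc-1 against wild type, beside 921 (12.6%), and 7 in the difference of changes between morc-1 and wild type, beside 544 (7.43%). It called 1 in late hrde-1 against wild type, beside 494 (6.74%), and 1 in late against early morc-1, beside 224 (3.06%).

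Changes near 0 took both signs. Leaving out a library gave log2 differences in late against early morc-1 of -0.40 to 0.27 for mex-6, -0.11 to 0.13 for oma-2, -0.083 to 0.24 for pos-1 and -0.27 to 0.24 for puf-11. In early hrde-1 against early wild type it gave -0.29 to 0.35 for mex-5, -0.59 to 0.045 for mex-6, -0.47 to 0.15 for puf-11 and -0.49 to 0.058 for puf-5. In late hrde-1 against late wild type it gave -0.16 to 0.63 for pos-1 and -0.0028 to 0.51 for puf-11, in late against early hrde-1 -0.32 to 0.32 for mex-5, and in early morc-1 against early wild type -0.57 to 0.055 for puf-11. Quantile normalisation turned mex-6 to 0.052 and puf-11 to 0.14 in late against early morc-1, rescaling turned them to 0.14 and 0.19, and quantile normalisation turned mex-5 to 0.047 in late against early hrde-1. The cause of these shifts was not tested.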

Other observations

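The 5 hypodermal markers, col-19 and elt-3 above the filter and 3 below it, summed to more in replicate 2 than in replicate 1 in 6 of 6 groups, for example 1435 against 431 FPKM in early wild type and 3375 against 224 in late hrde-1.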
